A study of Homo sapiens with 2 samples.

Results

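Matrix genes, 40 in all, for glycoproteins, proteoglycans and cross-linking enzymes of the extracellular matrix were described in A673 cells, an established human Ewing sarcoma line driven by the EWS/FLI1 fusion transcription factor. The 40 genes were taken by symbol from a list of matrix glycoproteins, small leucine-rich and large proteoglycans, elastic fibre proteins and lysyl oxidases, and all 40 had a row among the 23352 genes of the deposited tables. The study compared the transcriptome of A673 cells that stably express a hairpin targeting the transcription factor RUNX3 with that of A673 cells carrying a non-target hairpin. Poly(A) RNA of each population was sequenced as 1 library, and the titles call each library a pool.

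The library titled 813 is named for the RUNX3 hairpin sh813 and the library titled NT for the non-target hairpin shNT. The 2 populations shared everything else that the labels state. Both were A673 cells kept in DMEM with fetal bovine serum, penicillin and streptomycin. Both received lentivirus made in HEK 293T cells with the plasmids pMD-G (VSV-G) and EXQV and collected after 72 hours. Virus was applied with 6 µg/mL polybrene, and the cells were then kept in 0.4 µg/mL puromycin for 6 days, so each population was drug-selected and not described as a clone. Only 1 hairpin against RUNX3 was sequenced, in 1 line. The shRNA characteristic of each library contradicts its title. Libraries are named here by title, as the 813 library and the NT library (813 and NT for short), and taking the characteristic instead turns every direction round.

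The extracellular matrix is a network of secreted proteins that holds cells in place and stores growth factors. Adhesive glycoproteins such as fibronectin are bound by cell surface integrins, proteoglycans carry sulfated sugar chains that hold water and ligands, and fibrillins form the microfibrils on which elastin is laid down. Lysyl oxidases oxidise lysines of collagen and elastin, which start the cross-links that make these fibres insoluble. In Ewing sarcoma, a small round cell tumour of bone and soft tissue, EWS/FLI1 is known to keep many mesenchymal genes low.

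The tables gave 23342660 counted read pairs for the 813 library and 24326135 for the NT library. RUNX3 had 387 pairs (15.8 CPM) in the 813 library and 1391 pairs (59.9 CPM) in the NT library, where CPM is pairs scaled to 1e+06 effective pairs. The level matches the titles and not the characteristic. Of the Ewing markers, all 8 genes were measured, and they summed to 6717 CPM in 813 and 6339 in NT. CD99 stood at 4026 CPM in 813 and 3808 in NT. NKX2-2 (log2 fold -1.43) and NR0B1 (-1.11) were called lower in the 813 library. Without a call, STEAP1 (-0.83), GSTM4 (-0.82) and CAV1 (-0.01) were below 0, and CCND1 (0.62) and LIPI (0.22) above it. The summed level of the 7 fibroblast markers was 3535 CPM in the 813 library and 2894 CPM in the NT library, with 0 of the 7 called in either direction. PDGFRB had 384 CPM in 813 and 207 in NT (log2 fold 0.89), THY1 345 in 813 and 279 in NT (0.31), and COL1A2 2628 in 813 and 2180 in NT (0.27), while COL1A1 (-0.30) and PDPN (-0.78) were below 0. PDGFRA had 3 pairs in 813 and 4 in NT, and FAP 2 in 813 and 9 in NT. The 7 endothelial, 6 leukocyte and 5 epithelial markers summed to 8.58, 103 and 674 CPM in the 813 library and to 10.9, 143 and 635 CPM in the NT library. KRT18 made up most of the epithelial sum (625 CPM in 813 and 563 in NT). CD79A made up most of the leukocyte sum (90.0 CPM in 813 and 129 in NT). CD3E and TEK were at 0 in both, and PTPRC and EPCAM were at 0 pairs in the 813 library and 1 pair in the NT library. The 5 smooth muscle markers summed to 120 CPM in 813 and 171 in NT, the 7 cartilage and bone markers to 123 CPM in 813 and 151 in NT, and the 7 markers of the HEK293 line that made the virus to 85.2 CPM in 813 and 50.2 in NT. Within these lists KDR (endothelial, log2 fold 3.18, 52 pairs in 813 and 5 in NT), TAGLN (smooth muscle, 1.82) and SALL1 (HEK293, 1.02) were called higher, and ITGAM (leukocyte, -1.73) and GATA3 (HEK293, -1.56) lower. The part of these markers in the results was not tested, and in a bulk library fewer cells of a kind and less RNA per cell cannot be told apart.

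With 1 library per group no difference could be tested and none has a replicate check. Each gene is therefore given as a log2 fold, the 813 library over the NT library, with the exact 95% interval of its 2 counts in parentheses, which covers counting error only. A gene counted as measured if either library had it at 1 CPM or above. It was called higher or lower if it differed at least 2-fold and its whole interval lay past 1.5-fold. Among all 12254 measured genes, 8.13% were called higher and 3.48% lower, so that 70.0% of all calls were on the higher side. With plain total counts as library sizes that share was 81.4%, and the median log2 fold of all genes was 0.15 in place of 0.01.

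Of the 40 matrix genes, 32 were measured. Higher calls fell on 12 of them (37.5%) and a lower call on 1 (ELN), and 19 passed in neither direction. The median log2 fold was 0.42, and 24 of 32 were above 0, beside a median of 0.01 and 50.7% above 0 over all measured genes. Without the 1 CPM filter the 40 genes had the same 12 and 1 calls and a median of 0.41. The 40 genes together took 1.82% of all pairs (424055 pairs) in the 813 library and 0.879% (213749 pairs) in the NT library. FN1 alone took 0.951% in 813 and 0.510% in NT, and the other 39 took 0.866% in 813 and 0.368% in NT.

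**Figure D1:**
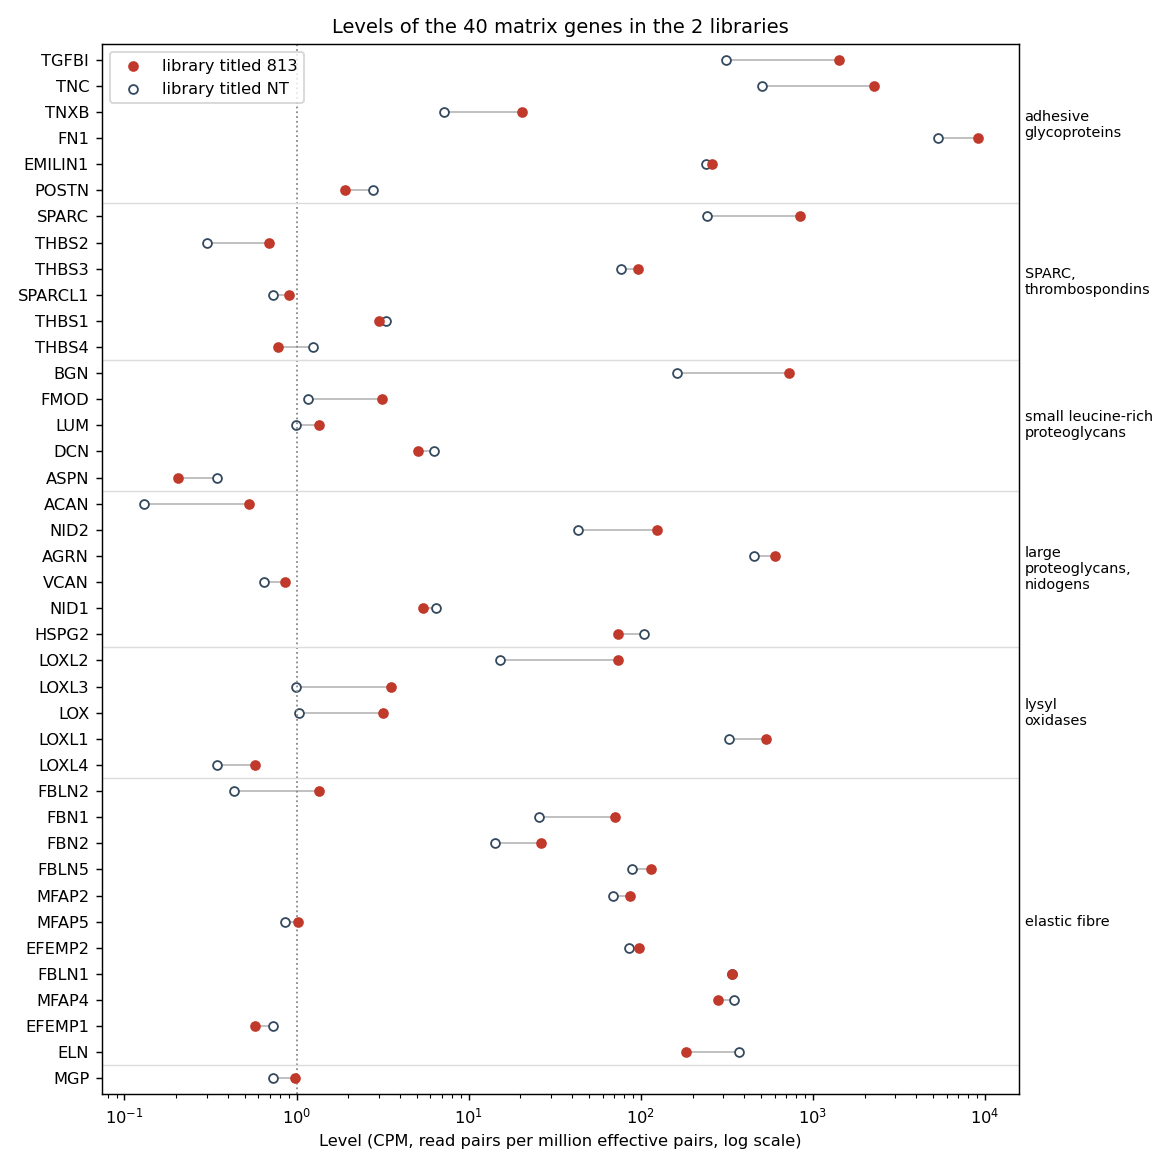
Level of each of the 40 matrix genes in the 813 library (filled red) and the NT library (open), in CPM on a log axis, grouped by role from top to bottom, with MGP last. The dotted line marks 1 CPM. FN1 stands highest in both libraries at 9072 CPM in 813 and 5347 in NT, TNC, TGFBI, SPARC, BGN and LOXL2 show the widest gaps among the well-covered genes, and ELN is the widest gap on the other side.

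Among the adhesive glycoproteins, TGFBI, TNC and TNXB were higher in the 813 library, and FN1, EMILIN1 and POSTN were not called. TGFBI (chr5:135364584-135399507 in hg19) encodes a TGF-beta induced protein that binds integrins and collagens. It had 34877 pairs (1426 CPM) in the 813 library and 7232 pairs (312 CPM) in the NT library, giving a log2 fold of 2.19 (2.16 to 2.23). TNC (chr9:117781854-117880536) encodes tenascin-C, a large glycoprotein of developing, wounded and tumour tissue that weakens cell adhesion to fibronectin. It had 55262 pairs (2259 CPM) in the 813 library and 11831 pairs (510 CPM) in the NT library, giving a log2 fold of 2.15 (2.12 to 2.18). The counting intervals of TGFBI and TNC overlap, and the difference between their folds was not tested.

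FN1 (chr2:216225179-216300791), fibronectin, was the most abundant of the 40 in both libraries, by pairs and by RPKM. Per length, it stood at 812.7 RPKM (rank 43 of all genes) in the 813 library and 437.9 RPKM (rank 107) in the NT library, the RPKM being the authors' own. It had 221921 pairs in 813 and 124119 in NT, and its log2 fold of 0.76 (0.75 to 0.77), 1.70-fold, did not reach the 2-fold rule although the interval lies wholly above 0. With the trend on GC content and length removed it was 0.25. EMILIN1, a glycoprotein of elastic fibre surfaces, had 258 CPM in 813 and 241 in NT with a log2 fold of 0.10 (0.05 to 0.15), and 0.44 after removal of that trend. POSTN, periostin, a relative of TGFBI in structure, had only 47 pairs in 813 and 65 in NT with a log2 fold of -0.54 (-1.12 to 0.02). TGFBI stood at 409 RPKM in 813 and 81.6 in NT, POSTN at 0.457 RPKM in 813 and 0.609 in NT, and the intervals of their folds do not overlap.

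TNXB (chr6:31976197-32077151), tenascin-X, which organises collagen in skin and tendon, had 499 pairs (20.4 CPM) in the 813 library and 166 pairs (7.15 CPM) in the NT library, giving a log2 fold of 1.51 (1.26 to 1.77). The 3′ part of this gene has a near-identical copy, the pseudogene TNXA, and reads there can be split or lost. The 30 exon records 5′ of the copied stretch had 210 reads in the 813 library and 65 in the NT library, giving a log2 fold of 1.60 (1.04 to 2.23). The 15 copied records of the gene itself had 705 reads in 813 and 246 in NT (1.44, 1.14 to 1.75), and the 13 records at the copy had 433 in 813 and 147 in NT (1.48, 1.09 to 1.89). The direction was the same in all 3 stretches.

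In the matricellular group, whose secreted proteins modulate adhesion more than they build structure, SPARC was the only call among 4 measured genes of 6. SPARC (chr5:151040657-151066615), osteonectin, binds collagen and calcium. It had 20541 pairs (840 CPM) in the 813 library and 5625 pairs (242 CPM) in the NT library, giving a log2 fold of 1.79 (1.75 to 1.84). Thrombospondins are calcium-binding multimers of the matrix, and of their 4 genes THBS3 carried 97.0% of the summed RPKM in the 813 library and 95.8% in the NT library. THBS3 had 95.9 CPM in 813 and 76.9 in NT with a log2 fold of 0.32 (0.23 to 0.41), under the rule, and 0.50 with the trend removed. THBS1, an inhibitor of vessel growth and activator of latent TGF-beta, had 74 pairs in 813 and 77 in NT (-0.13, -0.61 to 0.35, and 0.0026 with plain total counts), and THBS4 had 19 pairs in 813 and 29 in NT (-0.67, -1.60 to 0.20). At these counts no difference in THBS1 or THBS4 was detectable.

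Of the small leucine-rich proteoglycans, which bind collagen fibrils and set their width, BGN and FMOD were higher, and LUM and DCN were not called. BGN (chrX:152760347-152775004), biglycan, had 17683 pairs (723 CPM) in the 813 library and 3765 pairs (162 CPM) in the NT library, giving a log2 fold of 2.16 (2.11 to 2.21). It was almost the whole of the family per length, with 98.7% of the summed RPKM of the 5 genes in the 813 library and 94.99% in the NT library. DCN, decorin, the closest relative of biglycan, was at 124 pairs in 813 and 146 in NT with a log2 fold of -0.31 (-0.67 to 0.04). The intervals of these 2 relatives do not overlap. FMOD, fibromodulin, had 77 pairs in 813 and 27 in NT (3.15 CPM in 813, 1.16 CPM in NT), giving a log2 fold of 1.42 (0.79 to 2.13). LUM, lumican, had 33 pairs in 813 and 23 in NT (0.44, -0.37 to 1.28).

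Among the large proteoglycans and nidogens, NID2 was the only call in 4 measured genes of 6. NID2 (chr14:52471520-52535946), nidogen-2, links laminin to collagen IV in basement membranes. It had 3058 pairs (125 CPM) in the 813 library and 998 pairs (43.0 CPM) in the NT library, giving a log2 fold of 1.54 (1.44 to 1.64). NID1, its relative with the same linking role, had 133 pairs in 813 and 151 in NT (-0.26, -0.61 to 0.09), and NID2 held 96.4% of their summed RPKM in 813 and 88.5% in NT.

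The heparan sulfate proteoglycans of basement membranes lay on either side of 0, and neither reached 2-fold. AGRN, agrin, known for clustering acetylcholine receptors at the neuromuscular junction, had 602 CPM in 813 and 453 in NT with a log2 fold of 0.41 (0.37 to 0.45), and 0.64 with the trend removed. HSPG2, perlecan, had 73.9 CPM in 813 and 104 in NT with a log2 fold of -0.49 (-0.58 to -0.40). VCAN and ACAN, the hyaluronan-binding versican and aggrecan, were under 1 CPM in both libraries.

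Lysyl oxidases were higher in 3 of 4 measured genes, and the other one, LOXL1, had an interval wholly above 0. LOXL2 (chr8:23154410-23261722), which cross-links collagen IV and fibrillar collagens, had 1807 pairs (73.9 CPM) in the 813 library and 354 pairs (15.2 CPM) in the NT library. Its log2 fold of 2.27 (2.11 to 2.44) was the highest of the 32 measured genes, with an interval that overlaps those of TGFBI, TNC and BGN. With the trend on GC content and length removed, BGN (2.52) stood above LOXL2 (2.48). LOXL1 (chr15:74218789-74244478), which acts on elastin, had 533 CPM in 813 and 325 in NT with a log2 fold of 0.71 (0.67 to 0.75). It was the main enzyme gene per length in both libraries, with 91.4% of the summed RPKM of the 5 genes in the 813 library and 96.8% in the NT library. With the trend on GC content and length removed, the log2 fold of LOXL1 was 1.15 and it was called. LOXL2 took 7.85% of the summed RPKM in 813 and 2.81% in NT. LOX, the founding enzyme, had 78 pairs in 813 and 24 in NT, giving a log2 fold of 1.60 (0.95 to 2.35).

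LOXL3 had 87 pairs in the 813 library and 23 in the NT library, giving a log2 fold of 1.82 (1.17 to 2.57). The strand setting of the counting is not given in the sources used here, and the 3′ record of LOXL3 (chr2:74759946-74760806) overlaps HTRA2, a mitochondrial protease gene with 1146 pairs in 813 and 1632 in NT. That record had 674 reads in the 813 library and 866 in the NT library, giving a log2 fold of -0.44 (-0.65 to -0.23), and its reads cannot be assigned to 1 of the 2 genes. The LOXL3 gene count, 87 pairs in 813 and 23 in NT, is too small to hold most of these reads. The other 13 LOXL3 records had 213 reads in 813 and 46 in NT, giving a log2 fold of 2.11 (1.48 to 2.85). DOK1 also overlaps the 5′ side of the gene.

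The elastic fibre genes split, with FBN1 and FBLN2 higher and ELN lower among 10 measured genes of 11. FBN1 (chr15:48700503-48937985), fibrillin-1, the main microfibril protein, had 1725 pairs (70.5 CPM) in the 813 library and 597 pairs (25.7 CPM) in the NT library, giving a log2 fold of 1.45 (1.32 to 1.59). With the trend on GC content and length removed the log2 fold of FBN1 was 1.02, near the 2-fold rule, and the call remained. FBN2, the fibrillin of embryonic tissue, had 647 pairs in 813 and 332 in NT and lay just outside the rule with a log2 fold of 0.89 (0.69 to 1.08). Its value was 1.02, and called, under plain total counts, and 0.53 after removal of the trend. ELN (chr7:73442427-73484236), elastin, the rubber-like core of the fibre, had 4466 pairs (183 CPM) in the 813 library and 8644 pairs (372 CPM) in the NT library. Its log2 fold of -1.03 (-1.08 to -0.98), 2.04-fold lower, is just inside the rule, and the call ended with plain total counts (-0.89), with the authors' RPKM (-0.90) and with the trend on GC content and length removed (-0.74).

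The fibulins, which bridge elastin to microfibrils and to cells, held closer to 0 where they were abundant. FBLN1 had 341 CPM in 813 and 338 in NT, giving a log2 fold of 0.01 (-0.04 to 0.05), which was -0.01 with median-of-ratios size factors. FBLN5, required for elastic fibre assembly in mice, had 115 CPM in 813 and 88.8 in NT (0.37, 0.29 to 0.46), and EFEMP2, fibulin-4, had 97.5 CPM in 813 and 85.2 in NT (0.19, 0.11 to 0.28). FBLN2 was the exception at low level, with 33 pairs in the 813 library and 10 in the NT library and a log2 fold of 1.60 (0.59 to 2.83), and its call ended with median-of-ratios size factors (1.58) and with the authors' RPKM (0.99). Among the microfibril-associated proteins, MFAP2 had 86.5 CPM in 813 and 68.8 in NT (0.33, 0.24 to 0.43) and MFAP4 280 CPM in 813 and 348 in NT (-0.31, -0.36 to -0.27). Removal of the trend left MFAP4 at -0.013 and moved MFAP2 to 0.78 and EFEMP2 to 0.43. MFAP5 had 25 pairs in 813 and 20 in NT (0.24, -0.66 to 1.17). Thus ELN was lower, in a call that other settings ended, and FBN1 was higher. The abundant fibulins and microfibril-associated genes lay between them without a call.

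**Figure D2:**
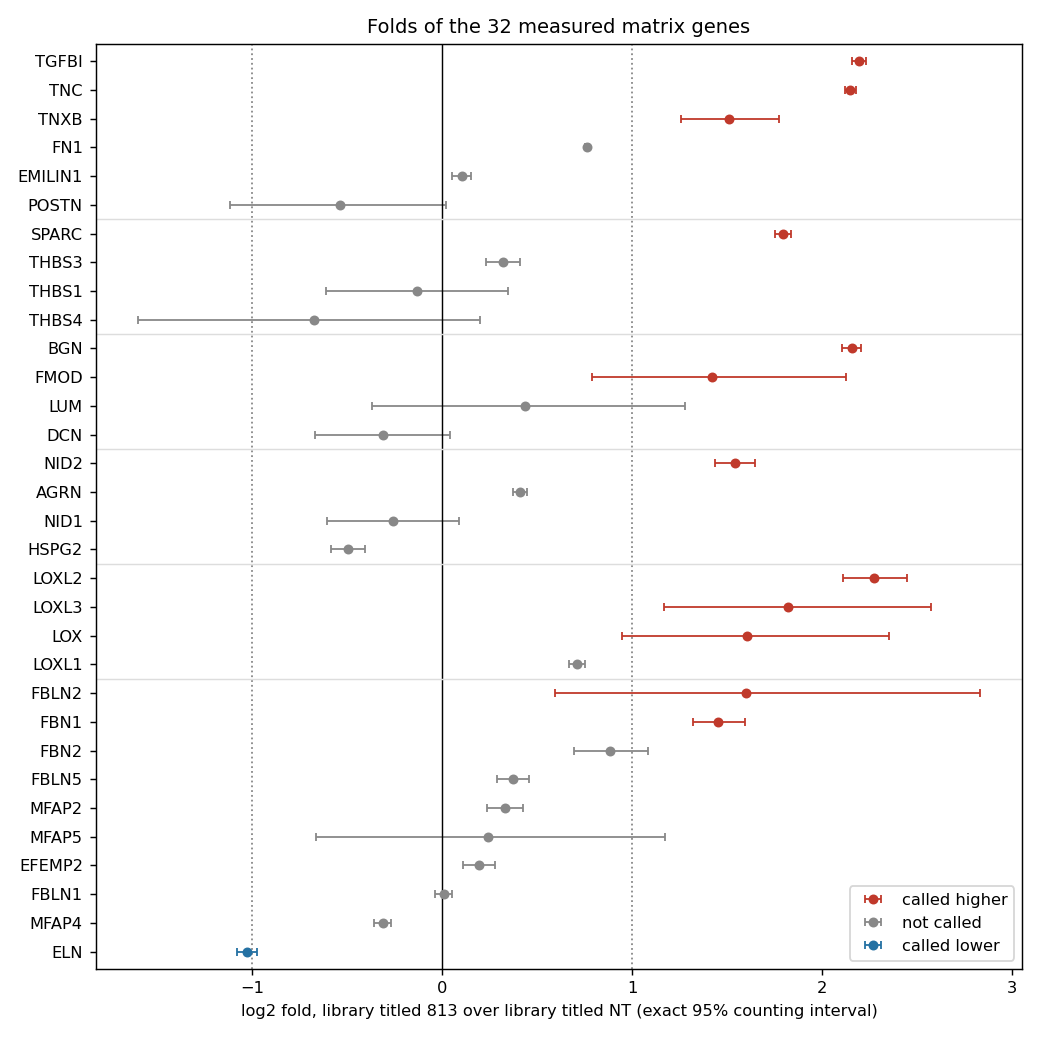
log2 fold of the 32 measured matrix genes, the 813 library over the NT library, with exact 95% counting intervals (bars), in the role groups of the levels plot. Dotted lines mark 2-fold. The 12 genes called higher lie between 1.42 and 2.27, ELN stands alone at -1.03, and FBN2 (0.89), FN1 (0.76) and LOXL1 (0.71) are the nearest uncalled genes under the line.

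Of the 40 genes, 8 were under 1 CPM in both libraries, with 5 to 24 pairs in the 813 library and 3 to 17 pairs in the NT library. They were THBS2 (17 pairs in 813, 7 in NT), SPARCL1 (22 in 813, 17 in NT), ASPN (5 in 813, 8 in NT), VCAN (21 in 813, 15 in NT), ACAN (13 in 813, 3 in NT), LOXL4 (14 in 813, 8 in NT), EFEMP1 (14 in 813, 17 in NT) and MGP (24 in 813, 17 in NT). MGP, matrix Gla protein, inhibits calcification of the matrix, and its highest value was 0.981 CPM. The counting intervals of 7 of the 8 include 0, and that of ACAN, on 3 pairs in NT, runs from 0.18 to 4.49 around a log2 fold of 1.87. Of the measured genes, LOXL3, FBLN2, LUM and MFAP5 reached 1 CPM in the 813 library only and THBS4 in the NT library only. LOXL3 and FBLN2 therefore entered the count through the library in which they were high.

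**Figure D3:**
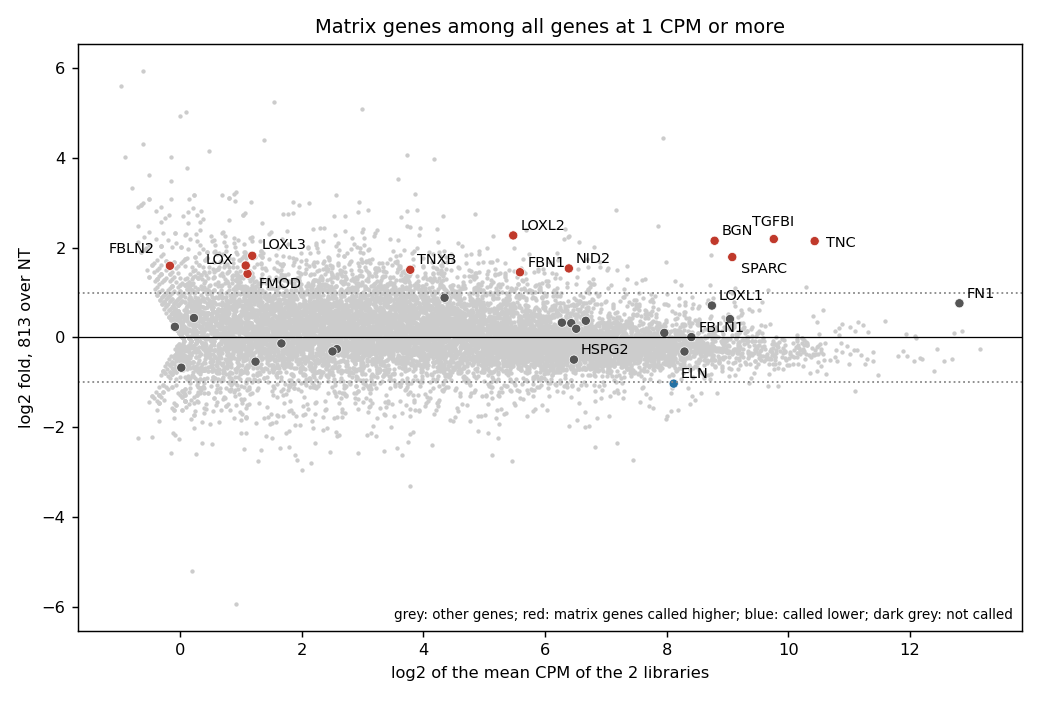
log2 fold of the 12254 measured genes against the log2 of their mean CPM, with the 32 measured matrix genes as large points, red where called higher, blue where called lower and dark grey where not called. TGFBI, TNC, BGN and SPARC lie at log2 folds of 1.79 to 2.19, above the upper dotted 2-fold line, at high mean levels.

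Exon counts were used to ask whether each fold held along the whole gene. Records with 50 or more reads in the 2 libraries together had log2 folds above 0 in 50 of 50 records of FN1 (0.66 to 0.86), 28 of 28 of TNC (2.0005 to 2.51), 17 of 17 of TGFBI (2.09 to 2.32), 10 of 10 of SPARC (1.64 to 1.95) and 8 of 8 of BGN (2.11 to 2.35). The less covered NID2 had 22 of 22 (1.15 to 2.01) and FBN1 62 of 62 (0.63 to 2.55). FBN2, with only 7 records at that depth, had 5 above and 2 below 0 (-0.35 to 2.03). On the other side, 34 of 34 ELN records (-1.23 to -0.71), 7 of 7 MFAP4 records (-0.38 to -0.29) and 86 of 95 HSPG2 records (-1.26 to 0.27 over all 95) were below 0. FBLN1, with 13 records above and 7 below 0, spanned -0.10 to 0.17. AGRN had 36 of 36 records above 0 (0.20 to 0.63). THBS3 had 25 of 25 (0.0050 to 0.60), with intervals that include 0 in most of them. These record folds use the scaled library sizes with no trend removed.

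The 14 LOXL2 records were all above 0, from 1.902 (1.12 to 2.84) at the 5′-most record (125 reads in 813, 31 in NT) to 3.11 (2.28 to 4.18) at record 3 (217 reads in 813, 23 in NT). The intervals of these extremes overlap. The fold was not even along the gene. The first 4 records from the 5′ end together had a log2 fold of 2.67 and the last 4 had 2.10. This difference of -0.57 was the largest in size of the matrix genes for which it was taken, with FBLN5 next at 0.27. Its cause was not tested. LOC100507156, a gene with 33 pairs in 813 and 24 in NT, overlaps LOXL2 over records 3 and 4.

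A record was called as departing from its gene at 2-fold or more from the other records with intervals apart. Of 511 records of the matrix genes, 1 was called, the 3′ record of LOXL3 that overlaps HTRA2, beside 0.443% of 92842 records over all genes. No other record of these genes passed that rule.

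**Figure D4:**
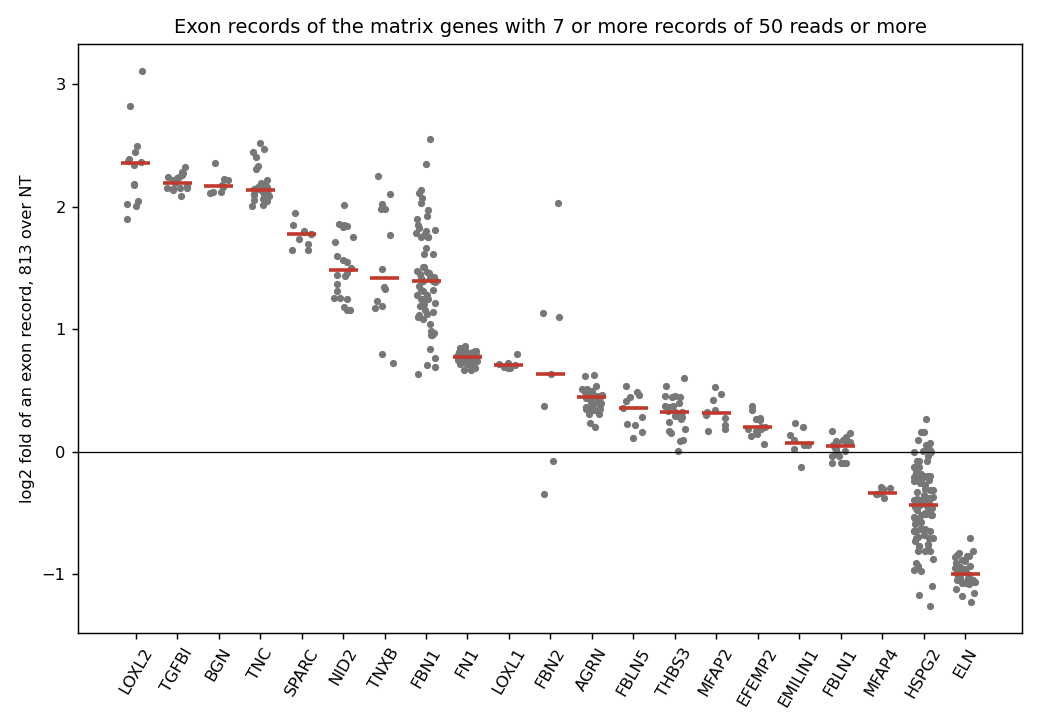
log2 fold of single exon records, the 813 library over the NT library, for the 21 matrix genes with 7 or more records of 50 reads or more. Points are records, spread sideways for legibility, and red lines are medians. TGFBI, BGN and FN1 are tight, FBN2, FBN1 and HSPG2 are wide, and all records of ELN lie below 0.

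Smaller shifts within the transcript were looked for in the exons that FN1, TNC and FBLN1 are known to splice. TNC has a run of fibronectin type III repeats, A1 to D, 1 exon each, that are included in large tenascin-C and left out of small tenascin-C. FN1 has the extra domains EDB and EDA, which are included in cellular fibronectin of embryos, wounds and tumours and left out of plasma fibronectin. The sequences below are exons on which the comparison rests, all on minus-strand genes. They are the TNC repeats with the largest and the smallest shift by point value, and both FN1 extra domains. Each is a whole exon read from GENCODE transcripts and matched to the deposited records by order and length, written 5′ to 3′ in lower case with no part singled out. TNC repeat A2 is chr9:117826075-117826347, TNC repeat C is chr9:117810539-117810811, FN1 EDB is chr2:216257654-216257926 and FN1 EDA is chr2:216245534-216245803, all in hg19.
TNC repeat A2: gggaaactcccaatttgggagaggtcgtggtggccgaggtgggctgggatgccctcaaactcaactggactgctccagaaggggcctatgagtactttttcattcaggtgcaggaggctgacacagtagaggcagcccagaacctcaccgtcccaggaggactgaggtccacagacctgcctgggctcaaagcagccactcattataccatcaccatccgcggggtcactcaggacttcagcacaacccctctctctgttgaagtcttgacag
TNC repeat C: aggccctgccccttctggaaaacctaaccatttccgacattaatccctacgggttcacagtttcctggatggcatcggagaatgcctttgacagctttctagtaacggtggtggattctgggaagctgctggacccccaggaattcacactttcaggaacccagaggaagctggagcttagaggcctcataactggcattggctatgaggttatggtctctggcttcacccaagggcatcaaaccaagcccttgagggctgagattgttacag
FN1 EDB: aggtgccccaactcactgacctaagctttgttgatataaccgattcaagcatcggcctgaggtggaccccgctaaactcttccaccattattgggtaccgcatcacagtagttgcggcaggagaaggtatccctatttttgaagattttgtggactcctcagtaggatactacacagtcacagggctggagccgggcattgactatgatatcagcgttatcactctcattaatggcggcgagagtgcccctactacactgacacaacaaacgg
FN1 EDA: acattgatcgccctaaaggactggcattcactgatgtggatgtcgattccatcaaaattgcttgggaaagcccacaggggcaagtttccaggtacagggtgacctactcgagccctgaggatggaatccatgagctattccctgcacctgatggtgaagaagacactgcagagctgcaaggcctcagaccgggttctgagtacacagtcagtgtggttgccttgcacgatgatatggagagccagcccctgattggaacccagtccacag

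The 7 TNC repeats A1 to D, each of 273 bases, had 19489 reads in the 813 library and 3535 in the NT library. They were set against 17 other internal records of TNC, records 4 to 10 and 18 to 27 from the 5′ end, which had 67347 in 813 and 14760 in NT. The repeats thus took 22.4% (counting interval 22.1 to 22.8) of these reads in the 813 library and 19.3% (18.5 to 20.1) in the NT library. The intervals do not overlap, but they treat the summed reads as independent, and a read spanning records can be counted in each. Per base, the density of the repeats was 0.411 of that of the other records in the 813 library and 0.341 in the NT library, a log2 difference of 0.27. Set against all 19 other internal records, with the long records 2 and 3 that the first count left out, the share was 16.7% (16.4 to 16.996) in 813 and 13.996% (13.4 to 14.6) in NT. The log2 difference was then 0.30, a comparison added after the data were seen.

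The point values of the shift differed between repeats, and the difference between the extremes was not tested. The log2 fold intervals of A2 (2.33 to 2.71) and C (1.88 to 2.40) overlap, which by itself does not settle whether they differ beyond counting error. Repeat A2 (3111 reads in 813 and 516 in NT) moved most, with a relative density of 0.460 in the 813 library and 0.348 in the NT library, a log2 difference of 0.40. Repeats A1, A3, A4, B and D had log2 differences of 0.19 to 0.35. Repeat C (1388 reads in 813 and 299 in NT) had the lowest relative density, 0.205 in 813 and 0.202 in NT, and a difference of 0.02. Against the other 6 repeats its share was 7.12% (6.62 to 7.65) in the 813 library and 8.46% (7.20 to 9.85) in the NT library, which overlap. A1 and A4 are 88.6% identical, so reads between these repeats can be misplaced, while A2 and C are 48.0% identical.

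**Figure D5:**
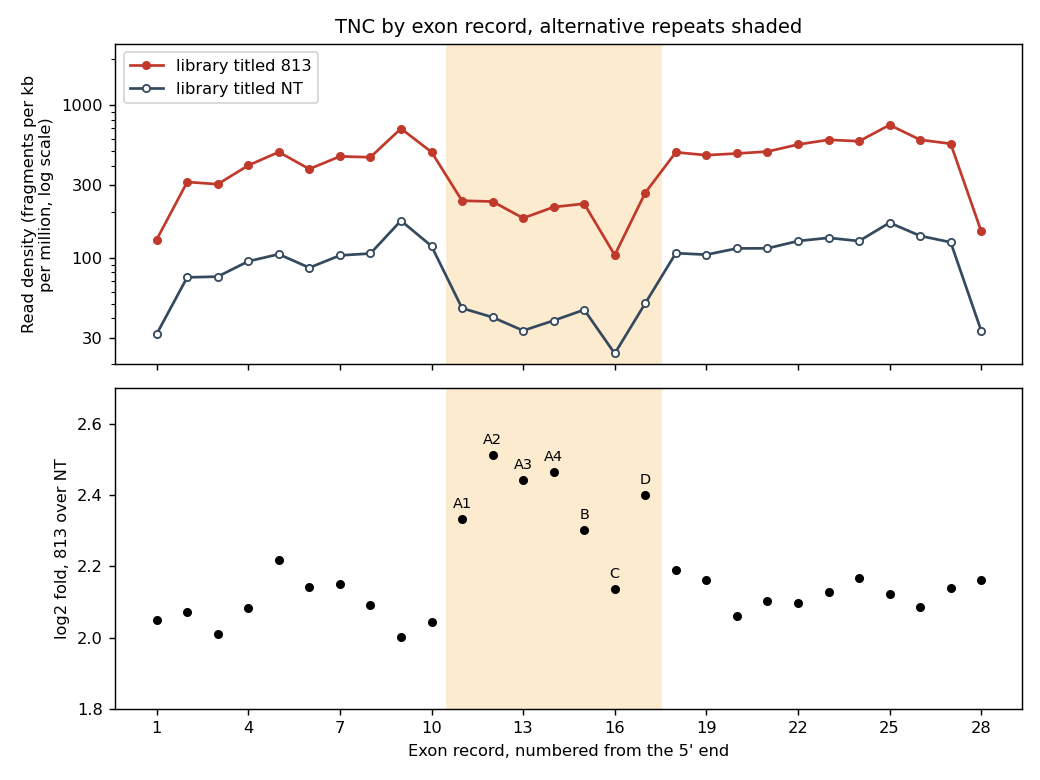
TNC by exon record from the 5′ end. The upper panel gives read density in the 813 library (filled red) and the NT library (open), in fragments per kilobase scaled to library size on a log axis, and the lower panel the log2 fold of each record. The shaded records are the repeats A1 to D, where density dips in both libraries and 6 of the 7 folds lie above all the other records, with repeat C at 2.14 among them.

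For FN1 no shift beyond counting error was detectable. EDB had 8655 reads in the 813 library and 4672 in the NT library, and a density relative to the 41 other records used of 0.427 in 813 and 0.411 in NT, a log2 difference of 0.05. EDA had 15366 reads in 813 and 8486 in NT, relative densities of 0.766 in 813 and 0.754 in NT and a difference of 0.02. For both extra domains the intervals of the log2 fold (0.74 to 0.89 for EDB and 0.73 to 0.84 for EDA) overlap that of the other FN1 records (0.75 to 0.77).

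FBLN1 ends in variants that differ at the C terminus, C and D being the main ones. The C end had 1960 reads and the D end 2267 in the 813 library, against 1985 and 1952 in the NT library. The C end took 46.4% (44.2 to 48.5) in the 813 library and 50.4% (48.2 to 52.7) in the NT library. The log2 difference of the C end from the D end was -0.23. The intervals of the shares overlap narrowly, which by itself does not settle whether they differ beyond counting error. Reads that pass over an exon may be counted in it in these tables. The 7 records of ASPN other than the 3′ one each had 16 reads in the 813 library and 17 to 19 in the NT library, while the gene had 5 pairs in 813 and 8 in NT and lies within CENPP (120 pairs in 813 and 136 in NT). Densities of exons that can be left out may therefore include reads that leave them out, and how far this differs between the libraries was not tested.

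Promoter windows of 300 bases, from 250 before to 50 after the start, were read from RefSeq (GRCh38.p14) for 30 of the 40 genes, with 39 windows. No window was used for MFAP5, MGP, LOXL2, EMILIN1, EFEMP1, DCN, ELN, LUM, MFAP4 and AGRN, and their promoters were not examined. The letters TGTGGT on either strand, the core that RUNX factors bind, were in 1 of 39 windows (2.56%) and in 13.1% of the 35116 windows of all genes. The 1 window was that of NID2, chr14:52069010-52069309 on the minus strand, in which the match, in capitals, lies 142 to 137 bases before the start. Shown because it is the only match in the 39 windows, it does not overlap a run of GGAA.
NID2 promoter: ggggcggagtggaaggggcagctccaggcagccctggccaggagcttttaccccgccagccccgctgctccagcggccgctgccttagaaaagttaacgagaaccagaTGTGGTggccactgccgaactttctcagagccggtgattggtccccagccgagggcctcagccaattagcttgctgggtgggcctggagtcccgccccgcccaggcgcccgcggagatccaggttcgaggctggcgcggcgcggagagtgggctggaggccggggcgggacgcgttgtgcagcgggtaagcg

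Runs of 3 GGAA in a row on either strand, the repeat that EWS/FLI1 binds, were in 0 of the 39 windows and in 30 of 35116 (0.0854%). A match shows letters and no binding, and windows without one say nothing of the factor or of more distant sites. BGN, TNC, TGFBI and SPARC, the 4 best covered higher calls, had no match to either motif in their windows.

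Other matrix genes were described from lists of 74 further genes, of which 41 were measured, with a median log2 fold of 0.36. Of the 41, 8 (19.5%) were called higher and 2 (4.88%) lower, beside 8.13% and 3.48% over all measured genes. FSTL1, a secreted SPARC relative, had 154 CPM in the 813 library and 35.3 CPM in the NT library (2.12, 2.01 to 2.24), and SMOC2, another SPARC relative, had 55 pairs in 813 and 7 in NT (2.81, 1.76 to 4.28). ECM1 had 114 CPM in 813 and 34.5 in NT (1.73, 1.61 to 1.84), and MATN3, a cartilage matrilin, 45 pairs in 813 and 13 in NT (1.68, 0.80 to 2.73). HMCN1, a giant relative of the fibulins, had 245 CPM in 813 and 80.6 in NT (1.60, 1.53 to 1.68). The proteoglycans PRELP (117 pairs in 813 and 42 in NT, 1.39) and SPOCK1 (45 pairs in 813 and 12 in NT, 1.79) were also higher.

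The relatives of EMILIN1 went opposite ways, with EMILIN2 higher (91.1 CPM in 813 and 37.8 in NT, 1.27, 1.16 to 1.38) and EMILIN3 lower (6.83 CPM in 813 and 19.3 in NT, -1.50, -1.76 to -1.24). LTBP4, a latent TGF-beta binding protein that also takes part in elastic fibre assembly, had 204 CPM in the 813 library and 447 CPM in the NT library, giving a log2 fold of -1.13 (-1.18 to -1.09). That call was lost under plain total counts (-0.999) and after removal of the trend on GC content and length (-0.87). Removing the trend also ended the calls of MATN3 (1.42) and SPOCK1 (1.38). Of 19 genes for collagen folding, processing and hydroxylation, 17 were measured and 0 were called, beside 8.13% called higher and 3.48% lower over all measured genes. Their median was 0.33 and their log2 folds ran from -0.82 to 0.82.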

How the data were processed

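Per the submitters' processing notes, CASAVA 1.9, TopHat2 2.0.6, HTSeq and genome build hg19 were used, with no role or order given. Annotation and strand setting were not given in the sources used here. The authors deposited counts and RPKM (counts scaled to gene length and to a read total) per gene and per exon, per the file headers. All deposited gene counts are even, so each was divided by 2 and read as pairs. Dropping 46 repeated rows left 23352 genes. Pairs were scaled by TMM (edgeR 4.0.16, R 4.3.3), whose factors were 1.05 in 813 and 0.954 in NT. Folds used a prior of 0.5 pairs, and intervals are exact Clopper-Pearson intervals (scipy 1.17.1, Python 3.11.15) that cover counting error only. On simulated counts with counting noise alone, 92.0% of 50 genes changed 2.5-fold and 0% of 50 changed 1.5-fold were called. Exon reads were divided by 2 for folds and intervals of folds and shares. A read that spans records can be counted in each, so intervals on summed records are approximate and may be too narrow. Sequences of exons came from GENCODE transcripts and promoters from RefSeq (GRCh38.p14), since no hg19 genome was used. The members, the gene lists, the markers and the call rule were chosen with earlier results of these data known. Measured members were all named, and from the other lists up to 4 called genes in each direction. Library scaling, RPKM, deposited counts, GC and length trend, prior, filters and the interval rule were varied.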

Additional observations from a re-analysis of the deposited data

How the results depend on the processing

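The count of matrix genes called higher was 12 and ranged from 8 (5 CPM or more, 23 genes measured) to 13 over the alternatives, and the median log2 fold stayed between 0.41 and 0.56. No log2 fold of a called matrix gene changed sign. The count called lower, 1 (ELN), was 0 with plain total counts, without the 20 most abundant genes in the library sizes, with the authors' RPKM, with the trend on GC content and length removed, and with the whole interval beyond 2-fold. Removing that trend gave LOXL1 a call at 1.15, and the trend, fitted to the 89.9% of measured genes with a GC value, took up 15.5% of the variance. The whole interval beyond 2-fold ended the calls of FBLN2, FMOD and LOX and left 9 higher. Exon records departing from their gene numbered 4 with reads as deposited, adding 2 records of FBN2 and 1 of FBN1. They numbered 5 with records of 20 or more reads, all in LOXL3. The added LOXL3 records were set against a rest of the gene that includes its 3′ record (674 reads in 813, 866 in NT). The other 13 records together had 213 reads in 813 and 46 in NT. In the other matrix lists, higher calls numbered 4 at 5 CPM or more and 5 with the whole interval beyond 2-fold, and lower calls numbered 1 with plain total counts or with the trend removed. The cause of these changes was not tested, except that a stricter filter or interval can only remove calls. No paired analysis was possible because each group has 1 library. The counting intervals of FBLN2, LOX, LOXL3 and FMOD, each under 100 pairs, are more than 1 log2 unit wide.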
